A study of Mus musculus with 9 samples.

Results

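The collagen genes of mouse ear skin and its cartilage were taken as every gene whose symbol is Col, a number, the letter a and a number, measured by probe sets (groups of short probes for 1 transcript) annotated to that gene alone. The rule found 82 of the 45101 probe sets and 42 of the 18193 genes. Of these, 31 genes had a signal above the 40th percentile of the array on all 9 arrays, 8 passed that level on 3 to 8 arrays, and Col24a1, Col6a4 and Col6a5 passed it on fewer than 3 and were not tested. The tested collagens therefore numbered 39, among 14122 tested genes.

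All 9 RNA samples came from the ear skin of C57BL/6 mice 6 h after a single kind of topical exposure. DNFB (dinitrofluorobenzene, a reactive hapten that sensitises the skin) and BAC (benzalkonium chloride, a detergent-like irritant) were put on the right ear, and the vehicle, acetone with olive oil, on the left ear. Each treatment had 3 arrays. The sources used here give no doses and do not say whether the 3 arrays of a treatment came from separate animals, so p-values measure only the spread between these samples. Because every compound-treated ear was a right ear and every vehicle ear a left one, compound and side cannot be told apart.

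Collagens are extracellular proteins whose alpha chains wind around each other into a rope-like helix. Types I, III and V build the fibrils of the dermis, types II, IX and XI those of cartilage, type IV the sheet of the basement membrane, and type VI fine beaded filaments. Type VII anchors the basement membrane to the dermis, and type XVII holds basal keratinocytes to it. New chains are hydroxylated and folded inside the cell with dedicated enzymes and chaperones, trimmed after secretion and then cross-linked by lysyl oxidases.

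The values are MAS5 signals, arbitrary units of brightness on a linear scale, and each array had been scaled to the same 2% trimmed mean of 250.001. Fold changes are on the scale of log2(signal + 16), which understates the change of dim genes, and a gene was called when the adjusted p of the limma fit lay under 0.05. The signal of a probe set also depends on its own probes, so levels of different genes are not compared. Summed signals of a list are given per array and are weighted towards its brightest probe sets. Correlations of log2 values between arrays of the same treatment were 0.935 to 0.966. The ratio of 3' to 5' signal for Gapdh, a measure of RNA integrity, was 0.841, 1.36 and 0.943 on the DNFB arrays, 0.930, 0.932 and 0.917 on the BAC arrays, and 0.856, 0.869 and 0.880 on the vehicle arrays. The same ratio for actin was 1.09, 1.28 and 1.23 on the DNFB arrays, 1.18, 1.22 and 1.20 on the BAC arrays, and 1.05, 1.06 and 1.10 on the vehicle arrays. Every BAC array thus lay above every vehicle array in both ratios, DNFB replicates 2 and 3 did so too, and DNFB replicate 2 had the highest Gapdh and actin ratios of all 9. The part of RNA integrity in the collagen changes was not tested. Vehicle replicate 2 stood apart in the neutrophil markers S100a8, at 2565 against 487 and 464 on the other vehicle arrays, and S100a9, at 2633 against 451 and 352. Markers of the labelled tissue were present, with 13 of 13 measured fibroblast markers, 9 of 9 basal keratinocyte markers and 13 of 14 cartilage markers above the filter. Skeletal muscle markers also passed, 13 of 13.

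Of the 39 tested collagens, 7 passed the threshold for at least 1 compound. After DNFB 4 collagens were higher than after vehicle (Col4a1, Col4a2, Col5a2 and Col6a1) and Col17a1 was lower. After BAC 4 were higher (Col4a1, Col4a2, Col15a1 and Col18a1) and Col17a1 was again lower. In each comparison 5 of 39 were called, which is 12.8%, while 13.8% of all tested genes were called for DNFB against vehicle (6.76% higher and 7.08% lower) and 14.2% for BAC against vehicle (6.59% higher and 7.64% lower). The share of collagens called was thus near that of all genes. Called changes measured 1.33-fold to 1.48-fold after DNFB and 1.33-fold to 1.57-fold after BAC. Col4a1, Col4a2 and Col17a1 were called in both comparisons, which share the vehicle arrays. The median log2 change over the tested collagens was 0.15 for DNFB against vehicle, with 25 positive and 14 negative, and 0.19 for BAC against vehicle, with 28 positive and 11 negative. All tested genes had medians of 0.00 and -0.03. Every DNFB array lay above every vehicle array for 12 of 39 collagens (30.8%), against 15.2% of all tested genes. Every DNFB array lay below for 2 of 39, against 15.6% of all tested genes, of which 30.9% had no overlap in either direction. For BAC the counts were 11 of 39 above (28.2%), against 14.9% of all tested genes, and 2 of 39 below, against 19.2%. In either direction 34.1% of all tested genes had no overlap for BAC. The number called after DNFB was 3 without DNFB replicate 2, and the number after BAC was 2 without BAC replicate 2 or vehicle replicate 1 and 3 without BAC replicate 3.

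**Figure D1:**
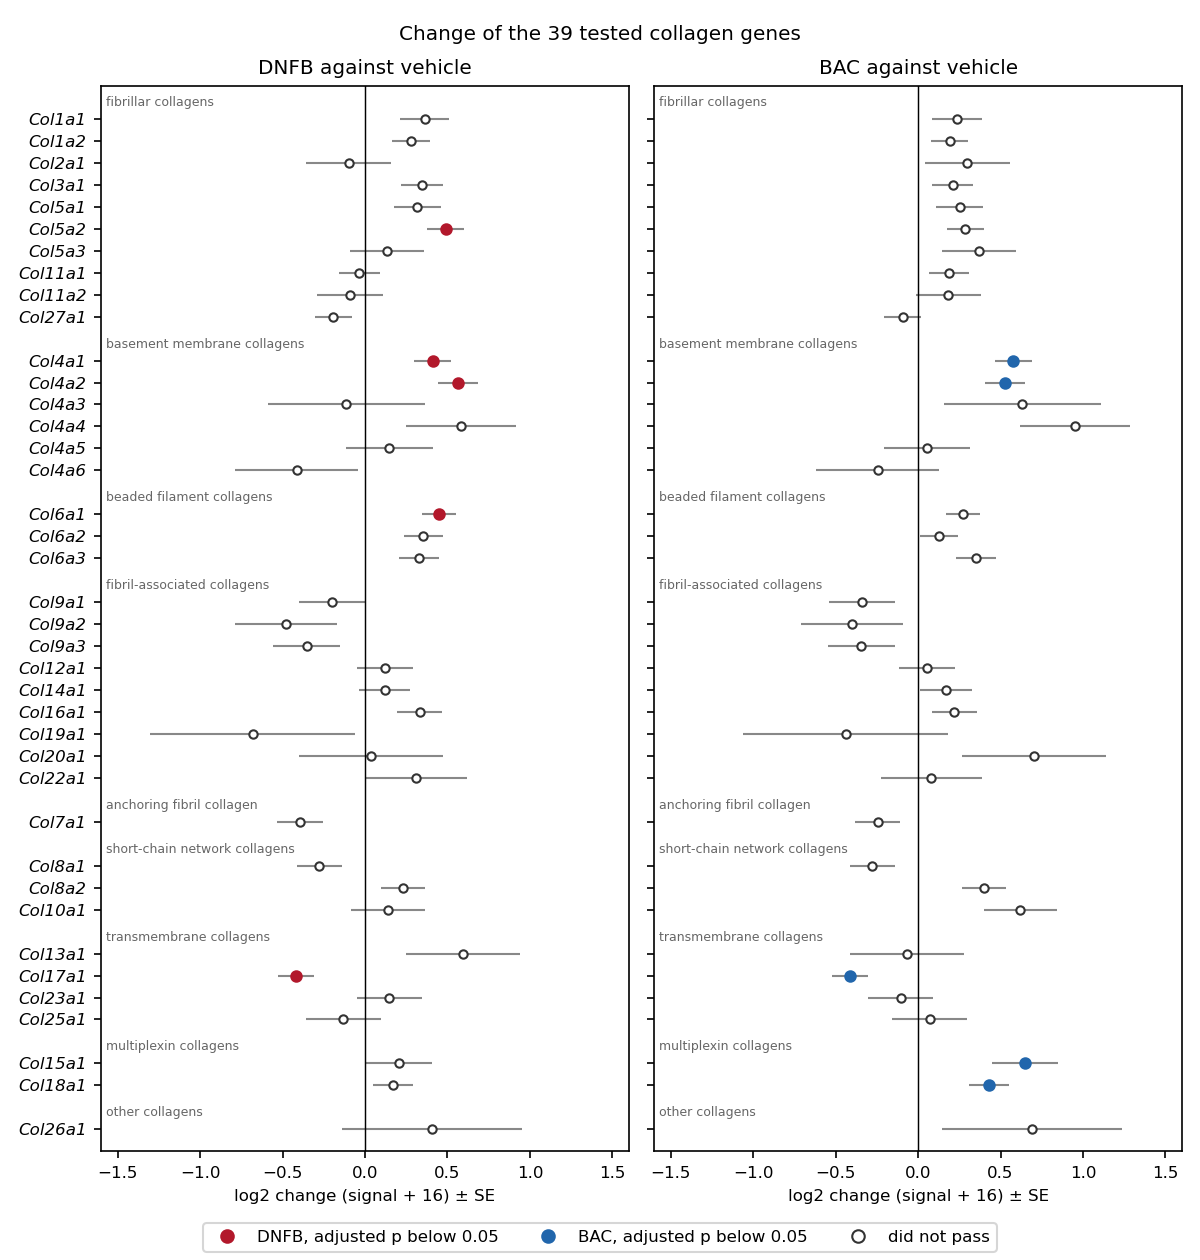
Log2 changes of the 39 tested collagens, ordered by family, for DNFB against vehicle and for BAC against vehicle. Points are limma estimates, bars their SE, and filled points passed the adjusted p threshold of 0.05. The filled points lie among the type IV, V, VI and XVII genes for DNFB and the type IV, XV, XVII and XVIII genes for BAC.

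The main type IV chains rose after both compounds. Col4a1 and Col4a2 encode the chains that together form the common type IV network under the epidermis and around vessels. In the mouse these 2 genes are neighbours on chromosome 8, read in opposite directions from start sites 21 bases apart. Their promoter windows, 250 bases before to 50 after each start in RefSeq GRCm38.p6, therefore overlap. They are shown because the pair changed together on the arrays, with the 78 bases shared by both windows in capitals, each strand as its gene is read (Col4a1 chr8:11312777-11313076, minus strand; Col4a2 chr8:11312555-11312854, plus strand).
Col4a1: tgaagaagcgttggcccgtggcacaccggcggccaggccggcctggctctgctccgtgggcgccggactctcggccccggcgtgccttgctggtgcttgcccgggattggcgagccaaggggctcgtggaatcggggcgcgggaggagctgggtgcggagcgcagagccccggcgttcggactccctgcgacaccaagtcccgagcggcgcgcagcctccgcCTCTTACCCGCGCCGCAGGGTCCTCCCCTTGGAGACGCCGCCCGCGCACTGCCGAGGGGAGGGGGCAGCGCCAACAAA
Col4a2: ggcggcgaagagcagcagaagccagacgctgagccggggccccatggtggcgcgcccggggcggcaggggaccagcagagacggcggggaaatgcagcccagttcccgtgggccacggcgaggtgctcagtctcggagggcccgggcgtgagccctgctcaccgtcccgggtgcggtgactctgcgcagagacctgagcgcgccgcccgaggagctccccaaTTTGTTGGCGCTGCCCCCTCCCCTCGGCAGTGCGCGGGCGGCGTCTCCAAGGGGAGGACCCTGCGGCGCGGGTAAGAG
Each window held a single CCAAT match on either strand. That of Col4a1 lay outside the shared bases, and that of Col4a2 ran across their edge. The GC box GGGCGG matched once in the Col4a1 window, within the shared bases, and 3 times in the Col4a2 window, 1 of them within the shared bases. Neither TATAAA nor the AP-1 letters TGANTCA occurred in these windows on either strand. Among 32851 promoter windows of the same length, 35.7% held GGGCGG, 37.4% CCAAT, 13.6% TATAAA and 7.81% TGANTCA. Of the 36 windows found for 33 collagen genes, 22 held GGGCGG, 13 CCAAT, 5 TATAAA, and 1, that of Col6a1, TGANTCA. Such matches describe letters and are not evidence of binding. Col1a1, Col2a1, Col4a3, Col5a2, Col9a3, Col12a1, Col14a1, Col22a1 and Col26a1 were not matched to a window.

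Col4a1 (Entrez 12826) had signals of 3017, 3659 and 3398.5 in DNFB ears, 4103, 3505 and 3699 in BAC ears, and 2834, 2398 and 2338 in vehicle ears. Every array of either compound lay above every vehicle array. The log2 change was 0.41 ± 0.11 (SE, n = 3 each) for DNFB, limma adjusted p = 0.0222, and 0.58 ± 0.11 for BAC, adjusted p = 0.00256. Col4a2 (Entrez 12827) had 1700, 2024 and 1763 in DNFB ears, 1786, 1639 and 1912 in BAC ears, and 1390, 1272 and 1047.5 in vehicle ears. Again the vehicle arrays were the lowest 3 of 9. Its log2 change was 0.56 ± 0.12 for DNFB, limma adjusted p = 0.00555, and 0.53 ± 0.12 for BAC, adjusted p = 0.0089. Between DNFB and BAC the difference was -0.17 for Col4a1, with a 95% interval of -0.40 to 0.07, and 0.04 for Col4a2, with an interval of -0.22 to 0.30. A further Col4a1 probe set gave 0.53 for DNFB, adjusted p = 0.1 over all probe sets, and 0.73 for BAC, adjusted p = 0.025. The DNFB call for Col4a1 was lost without DNFB replicate 2 (log2 change 0.35, adjusted p = 0.0926), DNFB replicate 3 (0.40, 0.0625), vehicle replicate 2 (0.38, 0.0603) or vehicle replicate 3 (0.36, 0.0932). No single array ended the other 3 calls.

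The remaining type IV genes were dim. Col4a3 and Col4a4, head-to-head neighbours on chromosome 1, and Col4a5 and Col4a6 on the X chromosome encode chains of specialised basement membranes. Col4a4 had 70.5, 53.7 and 80.5 in DNFB ears, 90.3, 98.6 and 87.0 in BAC ears, and 25.8, 65.7 and 34.9 in vehicle ears. All BAC arrays lay above all vehicle arrays, yet the log2 change of 0.95 had an adjusted p of 0.0722. This was the largest change among collagens that were not called in that comparison. Col4a3 averaged 36.6 ± 22.2 in DNFB ears, 66.7 ± 12.9 in BAC ears and 41.8 ± 31.0 in vehicle ears (SD, n = 3 each), and the groups overlapped. Col4a5 differed from vehicle by 0.15 after DNFB and 0.05 after BAC, and Col4a6 by -0.41 and -0.24, none of them past the threshold. The start sites of Col4a5 and Col4a6 lie 1343 bases apart.

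Endothelial and mural cells also make type IV collagen. Of 10 tested endothelial and mural markers, 4 were called higher after DNFB (Cdh5, Vwf, Myh11 and Rgs5) and 3 after BAC (Cdh5, Acta2 and Cspg4), and none lower, while 6.76% and 6.59% of all tested genes were called higher in these comparisons. Cdh5, the cadherin of endothelial junctions, had 418, 546 and 345 in DNFB ears, 439, 354 and 344 in BAC ears, and 223, 175 and 249.9 in vehicle ears, a log2 change of 0.95 for DNFB with adjusted p = 0.00238 and 0.77 for BAC with adjusted p = 0.0102. The summed signal of the list ranged over 6417 to 7611 in DNFB ears, 6521 to 6809 in BAC ears and 4850 to 5712 in vehicle ears, so it was lowest in the vehicle ears like Col4a1 and Col4a2. Rgs5 and Acta2, the brightest members, weighed most in this sum. The part of endothelial and mural cells in the change of Col4a1 and Col4a2 was not tested. In these bulk samples fewer cells of a type and less RNA per cell cannot be told apart, and the same holds for more.

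The multiplexins Col15a1 and Col18a1, basement membrane zone collagens of vessels and epithelia, were called after BAC. Col18a1 had 496, 478 and 466 in DNFB ears, 527, 591 and 615 in BAC ears, and 435, 441 and 400.1 in vehicle ears. The BAC arrays were the highest 3 of 9 and the vehicle arrays the lowest 3. After BAC Col18a1 was higher by 0.43 ± 0.12 on the log2 scale (SE, n = 3 each, limma adjusted p = 0.0283), and the DNFB difference was 0.17 ± 0.12, adjusted p = 0.417. A further probe set gave 0.70 for BAC, adjusted p = 0.003 over all probe sets, and 0.42 for DNFB, adjusted p = 0.058. Col15a1 had 197, 190 and 169 in DNFB ears, 324, 261 and 200.3 in BAC ears, and 149.6, 133 and 199 in vehicle ears. BAC replicate 3 and vehicle replicate 3 were almost level. For BAC the log2 change of Col15a1 was 0.65 ± 0.20, adjusted p = 0.0431, and 0.20 ± 0.20 for DNFB, adjusted p = 0.582. The difference between DNFB and BAC was -0.26 for Col18a1, with a 95% interval of -0.52 to 0.00, and -0.44 for Col15a1, with an interval of -0.87 to -0.01, and neither passed the threshold after adjustment, at 0.233 and 0.216.
Col18a1 was no longer called for BAC without BAC replicate 2 (log2 change 0.41, adjusted p = 0.0877), BAC replicate 3 (0.38, 0.0994), vehicle replicate 1 (0.44, 0.0743) or vehicle replicate 3 (0.39, 0.0948). Col15a1 was called in 8 of 20 alternative settings and lost its call without DNFB replicate 2 or 3 (adjusted p = 0.0516 and 0.0521), BAC replicate 1 or 2 (log2 change 0.49 and 0.64, adjusted p = 0.163 and 0.109) and vehicle replicate 1 or 2 (0.61 and 0.53, adjusted p = 0.132 and 0.143).

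Col17a1 fell after both compounds. It encodes the transmembrane collagen of hemidesmosomes, the plaques that fasten basal keratinocytes to the basement membrane. Its window in RefSeq GRCm38.p6, chr19:47691993-47692292 on the minus strand, is shown because Col17a1 was the collagen called lower, and differs from the type IV windows in its TATAAA matches. Capitals mark 2 matches to TATAAA and 1 to CCAAT read on the opposite strand.
Col17a1: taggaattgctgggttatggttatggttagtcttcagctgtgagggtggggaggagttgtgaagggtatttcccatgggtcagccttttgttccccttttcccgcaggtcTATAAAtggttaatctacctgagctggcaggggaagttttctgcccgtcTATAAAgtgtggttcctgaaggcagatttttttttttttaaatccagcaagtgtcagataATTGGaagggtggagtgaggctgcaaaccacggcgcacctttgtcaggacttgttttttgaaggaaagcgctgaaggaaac
Signals were 1701, 1779 and 1998 in DNFB ears, 2022, 1792 and 1678 in BAC ears, and 2617, 2453 and 2254 in vehicle ears. Each vehicle array lay above all 6 others. Col17a1 fell by 0.42 ± 0.11 on the log2 scale after DNFB (SE, n = 3 each, limma adjusted p = 0.0186) and by 0.41 ± 0.11 after BAC (adjusted p = 0.0193). DNFB and BAC differed by 0.00, with a 95% interval of -0.24 to 0.23. The DNFB call was lost without DNFB replicate 1 (log2 change -0.37, adjusted p = 0.0672), DNFB replicate 2 (-0.40, 0.0573) or vehicle replicate 1 (-0.37, 0.0961). The BAC call was lost without BAC replicate 2 (-0.40, 0.0654), BAC replicate 3 (-0.35, 0.0833) or vehicle replicate 1 (-0.36, 0.0994).

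Col7a1, the anchoring fibril collagen secreted by keratinocytes and fibroblasts, had 339, 275 and 314 in DNFB ears, 368, 316 and 349 in BAC ears, and 443, 408 and 383 in vehicle ears. The vehicle arrays were again the highest 3 of 9. Its log2 change was -0.40 ± 0.14 for DNFB, limma adjusted p = 0.0747, and -0.25 ± 0.14 for BAC, adjusted p = 0.272, so Col7a1 was not called. Of 9 tested basal keratinocyte markers, 4 fell after DNFB (Dst, Trp63, Krt15 and Krt5) and 2 after BAC (Dst and Krt15), and none was called higher, while 7.08% and 7.64% of all tested genes were called lower. The log2 change was negative for 9 of 9 after DNFB and for 8 after BAC. Krt14 was the exception, at 0.15 with every BAC array above every vehicle array. Trp63 changed by -0.06 after BAC, and Itga6 by -0.08 after DNFB and -0.06 after BAC, without a call. Dst, whose epithelial form links keratin to the hemidesmosome, had 968, 1067 and 950.0 in DNFB ears, 1627, 885 and 849 in BAC ears, and 2361, 1867 and 2765 in vehicle ears. Its log2 change was -1.20 for DNFB, adjusted p = 0.000821, and -1.09 for BAC, adjusted p = 0.00175. The summed signal of the list ranged over 22748 to 26235 in DNFB ears, 26670 to 31937 in BAC ears and 33746 to 34369 in vehicle ears, highest in the vehicle ears like Col17a1. Krt14, Krt5 and Krt15, the brightest members, weighed most in that sum. The part of basal keratinocytes in the fall of Col17a1 was not tested.

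**Figure D2:**
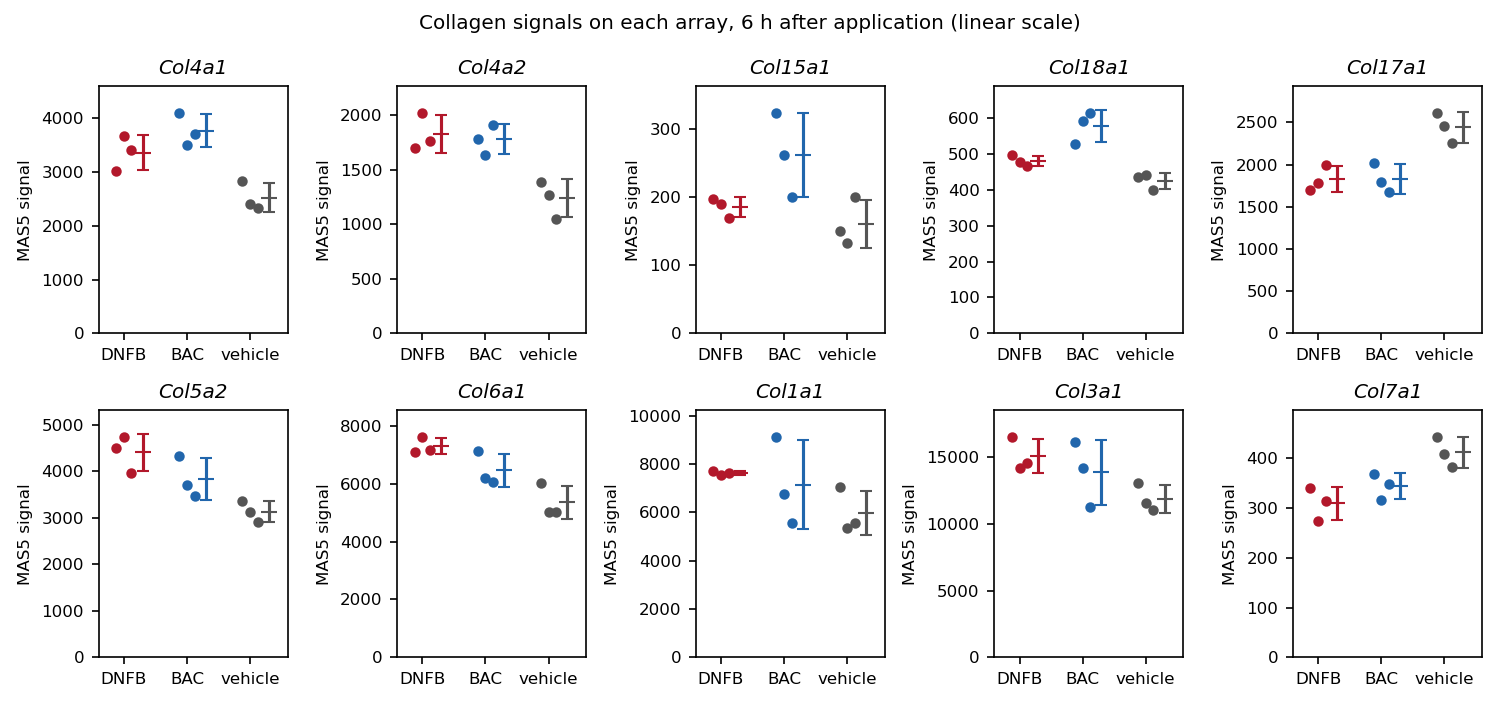
MAS5 signal (linear scale, arbitrary units) of 10 collagens on each of the 9 arrays, with DNFB left, BAC in the middle and vehicle right in each panel, where points are arrays and the bars beside them the mean ± SD of 3 arrays. Vehicle arrays are lowest for Col4a1 and Col4a2 and highest for Col17a1 and Col7a1, while the BAC arrays of Col1a1 and Col3a1 spread more widely than the DNFB or vehicle arrays.

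Among the fibrillar collagens 1 of 10 tested members was called by limma after DNFB and 0 of 10 after BAC. At an unadjusted p under 0.05 there were 5 after DNFB and 1 after BAC. Of all 14122 tested genes 13.8% and 14.2% were called, and 3717 and 3912 had an unadjusted p under 0.05. Col5a2, a type V chain that takes part in starting dermal fibrils, had 4495, 4752.5 and 3978 in DNFB ears, 4335.5, 3712 and 3464 in BAC ears, and 3368.5, 3133 and 2905 in vehicle ears. All arrays of both compounds lay above all vehicle arrays. Col5a2 differed from vehicle by 0.49 ± 0.11 on the log2 scale (SE, n = 3 each) for DNFB, limma adjusted p = 0.0078, and 0.29 ± 0.11 for BAC, adjusted p = 0.103. A further, dimmer Col5a2 probe set pointed the other way for DNFB, at -0.32 with an adjusted p of 0.18 over all probe sets, and the mean of both gave 0.09 with an adjusted p of 0.688. In the mouse Col5a2 and Col3a1 are neighbours on chromosome 1.

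Type I and III collagen, the bulk of dermal fibrils, were not called. Col1a1 had 7720, 7566 and 7635 in DNFB ears, 9143, 6762 and 5554.5 in BAC ears, and 7037, 5363 and 5566 in vehicle ears. The DNFB arrays lay close together and above every vehicle array, while the BAC arrays reached from within the vehicle range to above the DNFB arrays. Its log2 change was 0.36 ± 0.15 for DNFB, limma adjusted p = 0.136, and 0.24 ± 0.15 for BAC, adjusted p = 0.336. Col1a2, the partner chain of type I, had 21082, 18658 and 18810 in DNFB ears, 21248, 16934 and 17113 in BAC ears, and 18110, 15264 and 14962 in vehicle ears. Every DNFB array exceeded the vehicle arrays and the BAC arrays overlapped them, with log2 changes of 0.28 ± 0.11 for DNFB, limma adjusted p = 0.127, and 0.19 ± 0.11 for BAC, adjusted p = 0.3. Col3a1, the chain of type III, had 16554, 14198 and 14566 in DNFB ears, 16149, 14176 and 11292 in BAC ears, and 13074, 11547 and 11065 in vehicle ears. The pattern matched that of Col1a2, with log2 changes of 0.34 ± 0.13 for DNFB, limma adjusted p = 0.0846, and 0.21 ± 0.13 for BAC, adjusted p = 0.301. Col3a1 passed the threshold for DNFB when BAC replicate 3 was left out of the fit, with an adjusted p of 0.0375.

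Some other probe sets of the fibrillar genes gave further calls over all probe sets, and others did not. For DNFB against vehicle, further Col1a2 probe sets gave 0.13, limma adjusted p = 0.672, and, from dim signals, -0.66, adjusted p = 0.198. A further Col3a1 probe set gave -0.03, adjusted p = 0.949, and a further Col5a1 probe set 0.12, adjusted p = 0.757. A Col1a1 probe set other than the brightest had 6136, 7396 and 5783 in DNFB ears, 4831, 4856 and 4199 in BAC ears, and 4812, 4705 and 5149 in vehicle ears. Here the DNFB arrays were the highest 3 of 9 and the BAC and vehicle arrays overlapped. The log2 change was 0.39 for DNFB against vehicle, adjusted p = 0.032, 0.47 for DNFB against BAC, adjusted p = 0.021, and -0.08 for BAC against vehicle. A Col5a1 probe set had 1378, 1352 and 1302 in DNFB ears, 1432, 1089 and 1225 in BAC ears, and 967, 758 and 827 in vehicle ears, all compound arrays above the vehicle arrays. Its log2 changes were 0.66 for DNFB, adjusted p = 0.0034, and 0.54 for BAC, adjusted p = 0.013. The brightest Col5a1 probe set gave 0.32 for DNFB, adjusted p = 0.197 over all probe sets, and 0.25 for BAC, adjusted p = 0.31. The call for this type V chain thus depended on the probe set. Col5a3, the third type V chain, averaged 461 ± 18.4 in DNFB ears, 563 ± 175 in BAC ears and 434 ± 137 in vehicle ears (SD, n = 3 each), and the groups overlapped. Col27a1, a fibrillar collagen of cartilage and other tissues, changed by -0.19 after DNFB and -0.09 after BAC. Col24a1 stayed under the filter on all 9 arrays, at 1.7 to 31.7.

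Col6a1, Col6a2 and Col6a3 encode the chains that assemble into type VI beaded filaments, and Col6a1 and Col6a2 are neighbours on mouse chromosome 10. Col6a1 had 7090, 7623 and 7170 in DNFB ears, 7110, 6200 and 6070 in BAC ears, and 6011, 5030 and 5033 in vehicle ears. All arrays of both compounds lay above all vehicle arrays. Col6a1 differed from vehicle by 0.45 ± 0.10 on the log2 scale (SE, n = 3 each) for DNFB, limma adjusted p = 0.00851, and 0.27 ± 0.10 for BAC, adjusted p = 0.0973. Col6a2 had 7051, 6171 and 6305 in DNFB ears, 6293, 5442 and 5011 in BAC ears, and 5871, 4679 and 4771 in vehicle ears. Its DNFB arrays lay above the vehicle arrays and its BAC arrays overlapped them, with a log2 change of 0.35 for DNFB, limma adjusted p = 0.055, and 0.13 for BAC, adjusted p = 0.51. Col6a3 had 5103, 4453 and 3610 in DNFB ears, 4190.5, 4461 and 4639 in BAC ears, and 3820, 3301 and 3294 in vehicle ears. DNFB replicate 3 fell within the vehicle range, and the changes of 0.33 for DNFB and 0.35 for BAC had adjusted p-values of 0.0918 and 0.0661. Col6a4 and Col6a5 were at most 65.7 and 55.6 on any array and were not tested.

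Of 13 fibroblast markers, 4 were called higher after DNFB (Mfap5, Pi16, Dpt and Gsn), none lower, and 9 did not pass. After BAC 2 were called higher (Pi16 and Mfap5) and 1 lower (Clec3b), where 6.76% of all tested genes were called higher after DNFB, and 6.59% higher and 7.64% lower after BAC. Mfap5, a microfibril protein of dermal fibroblasts, changed by 0.77 on the log2 scale after DNFB, limma adjusted p = 0.000196, and by 0.37 after BAC, adjusted p = 0.034. The summed signal of the list ranged over 49936 to 57192 in DNFB ears, 45052 to 49512 in BAC ears and 41628 to 44815 in vehicle ears. Skeletal muscle markers, from the muscle layer of the ear, were called higher for 6 of 13 after DNFB (the largest changes in Atp2a1, Tnnt3, Tnni2 and Tnnc2) and 0 of 13 after BAC by limma. After BAC 4 had an unadjusted p under 0.05, beside 3912 of all 14122 tested genes. The summed signals of these markers were 57511 to 70982 in DNFB ears, 44760 to 70415 in BAC ears and 40301 to 52426 in vehicle ears. The part of these cells in the higher Col5a2 and Col6a1 was not tested. The 17 collagens with a mean signal of 1000 or more held all 5 calls after DNFB, with a median log2 change of 0.33, against 0.12 for the 22 dimmer ones. After BAC the medians were 0.22 and 0.18, with 3 and 2 calls.

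Of the 9 fibril-associated collagens, 0 were called by limma after either compound, and at an unadjusted p under 0.05 there was 1 after DNFB and 0 after BAC. Over all 14122 tested genes the unadjusted counts were 3717 and 3912, and 13.8% and 14.2% were called. Col12a1, which sits on the surface of type I fibrils, had 268, 368 and 379 in DNFB ears, 260.1, 372 and 333 in BAC ears, and 327, 287 and 305 in vehicle ears. Col14a1, a related fibril-surface collagen, had 482, 587 and 513 in DNFB ears, 531, 577 and 527 in BAC ears, and 503, 374 and 595 in vehicle ears. On these brightest probe sets the groups overlapped for both genes. The change was 0.12 for DNFB and 0.05 for BAC in Col12a1, with 95% intervals that include 0, and 0.12 and 0.17 in Col14a1. A further Col12a1 probe set gave 0.51 for DNFB and 0.47 for BAC, limma adjusted p = 0.174 and 0.209 over all probe sets. Its BAC arrays lay above all vehicle arrays. A further Col14a1 probe set gave 0.42 and 0.41, adjusted p = 0.12 and 0.128, with all arrays of both compounds above all vehicle arrays. Col16a1, a fibril-associated collagen of the dermis, had 1939, 2103 and 1884 in DNFB ears, 2142, 1897 and 1495 in BAC ears, and 1809.5, 1374 and 1542 in vehicle ears, and its DNFB arrays lay above all vehicle arrays without a call. Col19a1, Col20a1 and Col22a1 were dim, at 5.0 to 95.3 on any array. Col19a1 had the largest uncalled change for DNFB, -0.68, from arrays at 77.8, 8.4 and 16.8 in DNFB ears and 36.3, 57.4 and 64.7 in vehicle ears, which overlapped.

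The 7 collagens of cartilage were Col2a1, Col9a1, Col9a2, Col9a3, Col10a1, Col11a1 and Col11a2. All passed the filter, and 0 of 7 were called by limma in any comparison. At an unadjusted p under 0.05 Col10a1 passed after BAC and for DNFB against BAC, and 0 of 7 passed after DNFB. Of all 14122 tested genes 13.8% were called for DNFB, 14.2% for BAC and 6.8% for DNFB against BAC. Their counts at an unadjusted p under 0.05 were 3717, 3912 and 3049. Col2a1, the main fibrillar chain of cartilage, had 363, 230.2 and 357 in DNFB ears, 529.7, 466 and 287 in BAC ears, and 397, 219 and 425 in vehicle ears. The groups overlapped widely, with log2 changes of -0.10 for DNFB, limma adjusted p = 0.855, and 0.30 for BAC, adjusted p = 0.491. Col10a1, the network collagen of hypertrophic cartilage, had 188, 274 and 128 in DNFB ears, 305, 269.6 and 237 in BAC ears, and 166, 150.4 and 194 in vehicle ears. Every BAC array lay above every vehicle array, with a log2 change of 0.62 and an adjusted p of 0.0802. Col9a1, Col9a2 and Col9a3 encode the type IX chains on the surface of cartilage fibrils, and changed by -0.20, -0.48 and -0.35 after DNFB and by -0.34, -0.40 and -0.34 after BAC, none past the threshold. Col11a1 and Col11a2, chains of type XI within those fibrils, changed by -0.03 and -0.09 after DNFB and by 0.19 and 0.18 after BAC.

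On some BAC and vehicle arrays most cartilage collagens were high or low at once. Their median within-treatment SD was 0.35 on the log2 scale, against 0.22 for all tested collagens and 0.23 for all tested genes, and it was 0.35 for the fibril-associated collagens, which include the type IX genes, and 0.32 for the type IV genes. Among the BAC arrays replicate 1 was the highest for 6 of 7 and replicate 3 the lowest for 7 of 7, and among the vehicle arrays replicate 2 was the lowest for 6 of 7. No DNFB array held such a place, with replicates 1 to 3 the highest for 4, 2 and 1 genes and the lowest for 1, 3 and 3. Over all tested genes BAC replicate 1 was the highest BAC array for 32.9%, BAC replicate 3 the lowest for 34.9%, and vehicle replicate 2 the lowest vehicle array for 35.8%. As deviations from each gene's mean over the 9 arrays, the medians of the 7 cartilage collagens were 0.05, -0.29 and -0.07 on the DNFB arrays, 0.54, 0.15 and -0.28 on the BAC arrays, and 0.29, -0.12 and 0.03 on the vehicle arrays. The BAC arrays alone spanned a range that took in all 3 vehicle medians. The 13 other cartilage markers had medians between -0.15 and 0.09 on every array, a narrower range. The 39 tested collagens, which include these 7, showed a similar order of the arrays. BAC replicate 1 was the highest BAC array for 25 of the 39, BAC replicate 3 the lowest for 24, and vehicle replicate 1 the highest vehicle array for 24. Over all tested genes vehicle replicate 1 was the highest vehicle array for 29.2%. This order was not particular to collagens. Among 13 fibroblast markers BAC replicate 1 was the highest BAC array for 9 and BAC replicates 2 and 3 the lowest for 6 each. Vehicle replicate 1 was the highest vehicle array for 9 of these markers and vehicle replicate 2 the lowest for 9. Of the 13 other tested cartilage markers 1 was called after DNFB (Comp, a cartilage and tendon matrix protein, at 0.56 with adjusted p = 0.0166) and 1 after BAC (Chil1, a chitinase-like protein, at 0.94 with adjusted p = 0.00218). That is 7.69% in each comparison, against 13.8% and 14.2% of all tested genes.

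**Figure D3:**
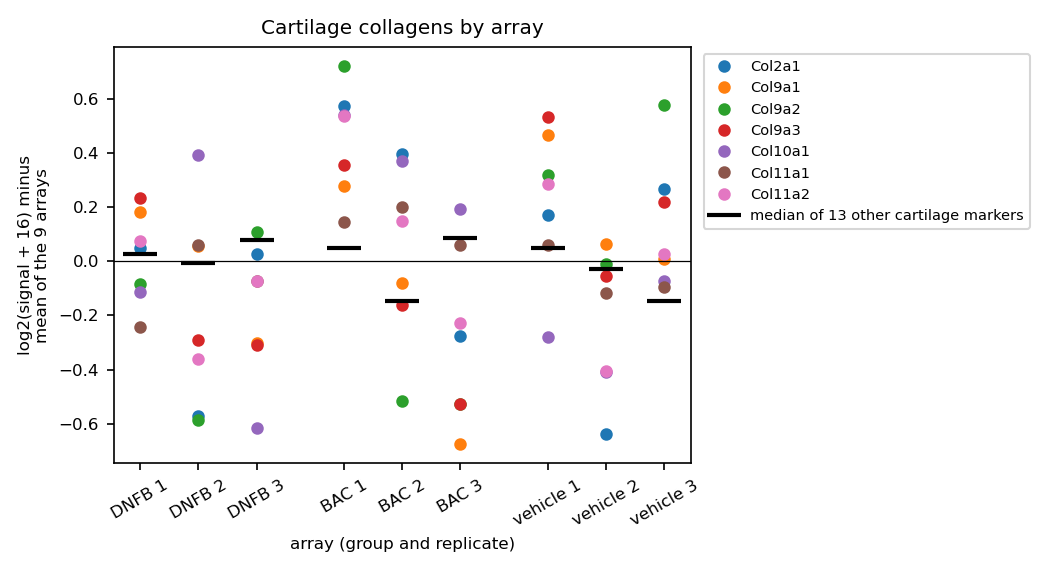
Log2 deviation of each of the 7 cartilage collagens from its own mean over the 9 arrays, by array, with DNFB left, BAC in the middle and vehicle right. Points are genes, and black bars are the medians of the 13 other cartilage markers. All 7 points lie above 0 on BAC replicate 1, while the bars stay between -0.15 and 0.09 on every array.

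The remaining collagens were not called. Col8a1 and Col8a2 encode the short-chain network collagen of vessel walls and other tissues. Col8a1 had 5434, 4867 and 5861 in DNFB ears, 6622, 4671 and 5003 in BAC ears, and 7588, 5819 and 6246 in vehicle ears, a change of -0.28 in both comparisons with overlapping arrays. Further Col8a1 probe sets gave -0.39 and -0.01 for DNFB and pointed the other way for BAC, at 0.38 and 0.13, none of them called. Col8a2 had 1175, 1681 and 1392 in DNFB ears, 1496, 1480.2 and 1771 in BAC ears, and 1104, 1286 and 1194 in vehicle ears. All its BAC arrays lay above the vehicle arrays, with a log2 change of 0.40 and an adjusted p of 0.0567. The transmembrane collagens Col13a1, Col23a1 and Col25a1 lay between 28.0 and 232 on every array. Col13a1, a collagen of cell adhesion sites, had 92.9, 109 and 75.3 in DNFB ears, 85.7, 54.0 and 28.0 in BAC ears, and 55.9, 55.4 and 54.4 in vehicle ears, so that the DNFB arrays stood above the vehicle arrays with a change of 0.60 and an adjusted p of 0.303. Col26a1 lay between 9.6 and 80.4 without separation of the groups.

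Compared directly, DNFB and BAC gave 0 of 39 collagens past the threshold in limma, against 6.8% of all tested genes (3.14% higher and 3.66% lower). At an unadjusted p under 0.05 there were 2 of 39 collagens, Col10a1 and Col15a1, beside 3049 of all 14122 tested genes. The smallest adjusted p among the collagens was 0.216. The median difference was -0.05, with 16 positive and 23 negative, against 0.03 over all tested genes. A p that misses the threshold does not show that the compounds act alike. The 95% interval of the difference between DNFB and BAC was -0.20 to 0.45 for Col1a1, -0.13 to 0.40 for Col3a1, -0.03 to 0.44 for Col5a2 and -0.04 to 0.40 for Col6a1. At the level of single probe sets 1 of 65 tested collagen probe sets was called, 1.54%, against 4.96% of all tested probe sets, and it was the Col1a1 probe set described above.

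Probe sets of a gene did not always point the same way. Of the 42 genes, 27 had several probe sets and 15 had 1, with 65 of the 82 tested on their own. Among 21 genes with several tested probe sets, all pointed in the same direction for 14 genes after DNFB and 13 after BAC. Of the 65 tested probe sets 6 were called higher and 1 lower after DNFB, and 6 higher and 1 lower after BAC, 10.8% in each comparison, against 10.4% and 10.2% of all tested probe sets.

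**Figure D4:**
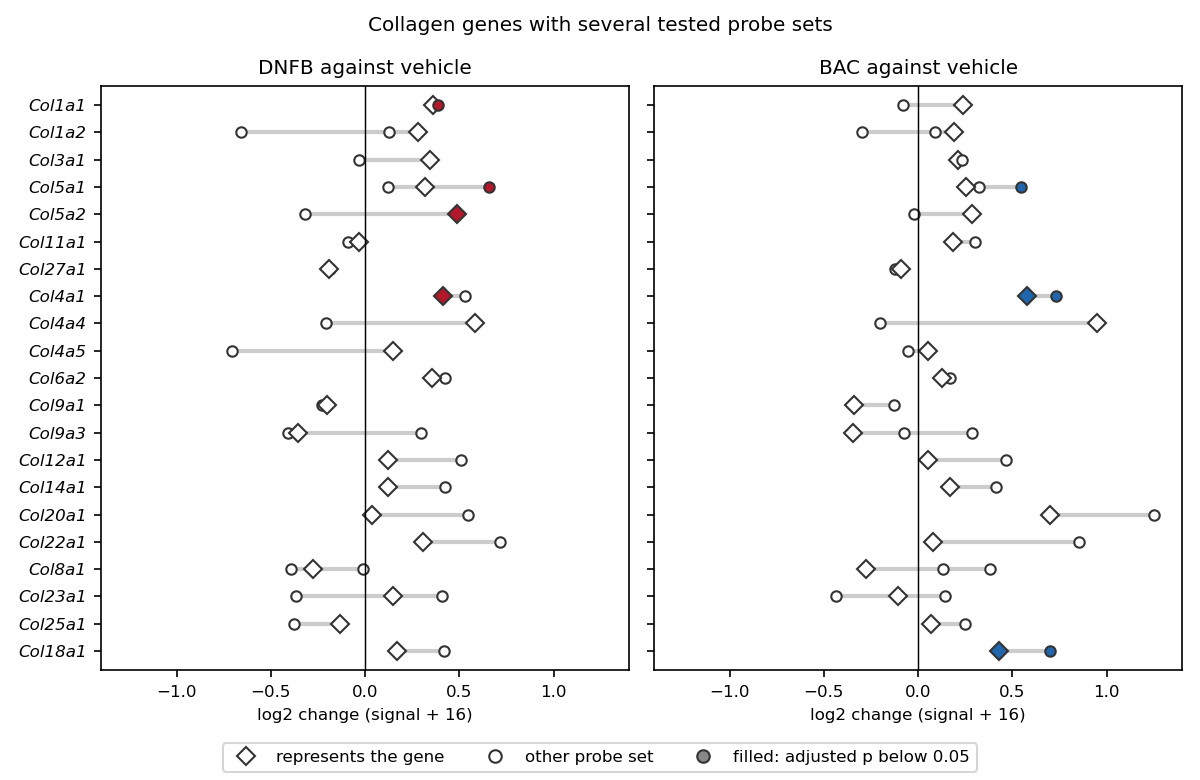
Log2 change of every tested probe set of the collagens with several, for DNFB against vehicle and for BAC against vehicle, 1 line per gene. Filled points passed the adjusted p threshold of 0.05 over all tested probe sets. The Col4a1 and Col18a1 points lie to the right of 0, and the Col5a2 points lie on both sides of 0 for DNFB.

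Genes that process collagen changed more than the collagens themselves in some cases. Of 24 tested members, 4 rose after DNFB (Lox, Serpinh1, Pcolce and P4ha1) and none fell, while after BAC Lox and Loxl4 rose and P3h4 and Crtap fell. The called share was 16.7% in each comparison, against the 13.8% and 14.2% given above. Lox, the lysyl oxidase that starts collagen cross-linking, had 4929, 4623 and 3548 in DNFB ears, 4094, 2759 and 3524 in BAC ears, and 2329, 2078 and 1553 in vehicle ears. All arrays of both compounds lay above the vehicle arrays, with log2 changes of 1.14 for DNFB, limma adjusted p = 0.000275, and 0.80 for BAC, adjusted p = 0.00482. Loxl4, a related oxidase, had 2033, 2064 and 1889 in DNFB ears, 3471, 3471 and 3014 in BAC ears, and 1892, 1685 and 1616 in vehicle ears. Only the BAC arrays stood apart, with a log2 change of 0.93 for BAC against vehicle, limma adjusted p = 1.88e-05, and -0.73 for DNFB against BAC, adjusted p = 0.000422.

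Serpinh1, the collagen chaperone of the endoplasmic reticulum, had 2303.5, 2021 and 1851 in DNFB ears, 1476.5, 1714 and 1336 in BAC ears, and 1440.3, 1237 and 1623 in vehicle ears. Its DNFB arrays lay above all others, and the change of 0.52 for DNFB against vehicle had a limma adjusted p of 0.0137. Pcolce, which enhances removal of the procollagen C-terminal propeptide, changed by 0.51 for DNFB against vehicle, adjusted p = 0.00222, and 0.37 for DNFB against BAC, adjusted p = 0.031. P4ha1, a prolyl hydroxylase subunit, changed by 0.47 for DNFB against vehicle, adjusted p = 0.0382. Crtap, a subunit of the prolyl hydroxylation complex, changed by -0.34 for BAC against vehicle, adjusted p = 0.0483, and 0.45 for DNFB against BAC, adjusted p = 0.0213. P3h4, a partner of lysyl hydroxylation in the endoplasmic reticulum, had 558, 556 and 562 in DNFB ears, 454, 400.2 and 409.7 in BAC ears, and 692, 675 and 584 in vehicle ears, lowest after BAC with a change of -0.61 and an adjusted p of 0.00328. Between DNFB and BAC 4 of the 24 were called, with Crtap, Pcolce and Pcolce2 higher and Loxl4 lower after DNFB, 16.7% against 6.8% of all tested genes. Pcolce2, an enhancer of procollagen trimming related to Pcolce, differed by 0.53, adjusted p = 0.0421. That count was 1 without DNFB replicate 2, DNFB replicate 3 or BAC replicate 3 and 2 without BAC replicate 2, and the count for DNFB against vehicle was 2 without DNFB replicate 1.

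**Figure D5:**
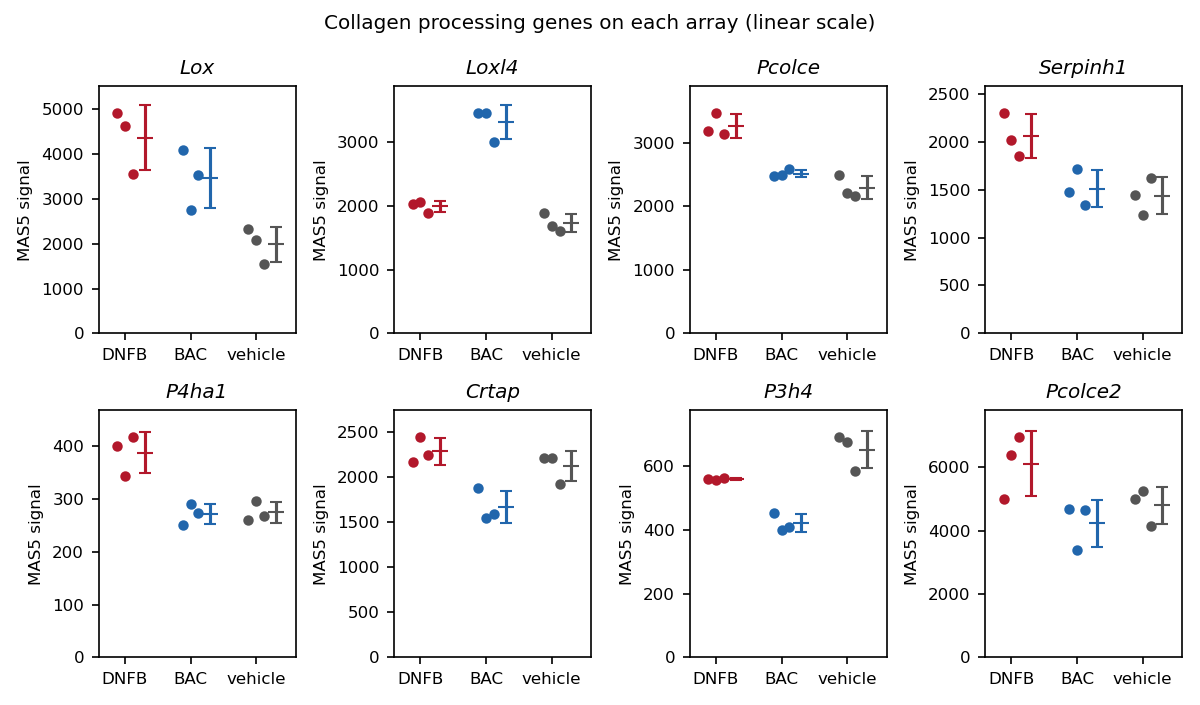
MAS5 signal (linear scale, arbitrary units) of 8 collagen processing genes called in a comparison on each of the 9 arrays, with DNFB left, BAC in the middle and vehicle right in each panel. Points are arrays and the bars beside them the mean ± SD of 3 arrays. Lox stands above vehicle after both compounds, Loxl4 after BAC, and Serpinh1 and P4ha1 after DNFB.

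Of 8 tested collagen receptors, Itgb1, the beta chain of the collagen-binding integrins, rose after both compounds, and Ddr1, a collagen-activated tyrosine kinase of epithelia, fell after DNFB. The called share was 25% for DNFB and 12.5% for BAC, against 13.8% and 14.2% of all tested genes. Itgb1 had 2277, 2697 and 1892 in DNFB ears, 2426, 2326 and 2621 in BAC ears, and 1422, 1579 and 1317 in vehicle ears. The vehicle arrays were the lowest 3, and the log2 change was 0.65 for DNFB, limma adjusted p = 0.00251, and 0.77 for BAC, adjusted p = 0.000728. Ddr1 had 437, 470.3 and 578 in DNFB ears, 762, 657 and 656 in BAC ears, and 864, 656 and 945 in vehicle ears. Its DNFB arrays were the lowest 3, with a log2 change of -0.71 and an adjusted p of 0.00509. Of 9 fibril-binding proteoglycans, Lum and Bgn, which bind dermal fibrils, were called higher by limma after DNFB, at 0.39 with adjusted p = 0.0282 and 0.35 with adjusted p = 0.0348. After BAC 0 of 9 were called by limma, and 1 had an unadjusted p under 0.05, beside 3912 of all 14122 tested genes. Of all tested genes 6.76% were called higher after DNFB and 6.59% after BAC.

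Of 7 neutrophil markers 5 were called higher after DNFB and 7 after BAC, with the largest changes in S100a9, S100a8, Clec4d and Csf3r in both comparisons. Of 7 macrophage markers 4 were called higher after DNFB (Cd14, Cd68, Csf1r and Lyz2) and 3 after BAC (Cd14, Lyz2 and Cd68). After DNFB Cd163, Adgre1 and Mrc1 had negative log2 changes, -0.36, -0.14 and -0.11, that did not pass, and every DNFB array of Cd163 lay below every vehicle array. Among 5 adipocyte markers Fabp4 was called higher after DNFB, and among 4 Schwann cell markers Mbp and Pmp22 after DNFB and Pmp22 after BAC. Over all tested genes 6.76% were called higher after DNFB and 6.59% after BAC. The summed neutrophil signal ranged over 13996 to 23760 in DNFB ears, 22794 to 32564 in BAC ears and 3659 to 8654 in vehicle ears, where replicate 2 was the highest. In DNFB and BAC ears S100a8 and S100a9 weighed most in it. Without vehicle replicate 2 the collagens called numbered 4 after DNFB and 5 after BAC. The part of infiltrating cells in the collagen changes was not tested.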

How the data were processed

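RNA of the 9 ear skin samples was hybridised to Affymetrix expression arrays. The authors deposited linear intensities, a MAS5 signal for each probe set of each array, made with MAS5 and Affymetrix Expression Console per the submitters' processing notes. Its settings for scaling are not stated in those notes. The equal 2% trimmed mean was found from the values. Detection calls and scan batches were not used here.

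Groups came from the sample titles. Of the probe sets, 64 controls were left out and 34945 had a single gene. A gene was represented by its probe set with the highest mean log2(signal + 16), and tested when above the 40th percentile of the array on at least 3 of 9 arrays. All 9 arrays entered 1 limma 3.58.1 fit in R 4.3.3 (lmFit, then eBayes with trend, 6 residual degrees of freedom and 9.09 prior ones). P-values were two-sided and adjusted by Benjamini-Hochberg over the 14122 tested genes, or over all tested probe sets where that is said. The fit was tested on simulated data. With 3 arrays a side the smallest p of an exact permutation test is 0.1, so single genes were not permuted. No 2 arrays were identical. Intervals are 95% limma intervals.

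All collagens were described. Those given with all 9 signals by rule were the 7 called ones and 7 others named for their role. More were added after their values were seen (Col4a4, Col6a2, Col6a3, Col8a1, Col8a2, Col10a1, Col13a1, Col16a1, Col19a1 and single probe sets of Col1a1 and Col5a1). From the other lists the called members were named for the comparisons with vehicle, up to 4 of the largest changes in each. The members and all lists were chosen with earlier results of these data known. Promoter windows are from RefSeq GRCm38.p6, and motifs were searched on both strands. Alternatives covered the offset, the filter, scaling, the probe set rule, the trend, a fit on 2 groups, a replicate block and leaving out each array.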

Additional observations from a re-analysis of the deposited data

How the results depend on the processing

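Under 20 alternative settings, Col4a2 for DNFB against vehicle and Col4a1 for BAC against vehicle passed the threshold in all 20. Col4a2 for BAC passed in 18, Col5a2 for DNFB in 18, Col6a1 for DNFB in 17, Col17a1 in 15 for DNFB and 16 for BAC, Col18a1 for BAC in 15, Col4a1 for DNFB in 12 and Col15a1 for BAC in 8. The number of collagens called was 2 for DNFB and 2 for BAC with arrays centred on the median, 3 for DNFB with probe sets averaged per gene, 1 for DNFB and 3 for BAC without the intensity trend, and 1 for DNFB against BAC with every probe set on its own. Leaving out 1 array gave 3 to 7 for DNFB, 2 to 7 for BAC and 0 to 0 for DNFB against BAC. Among collagen processing genes, the number called for DNFB against BAC was between 1 and 7 over the alternatives. The cause of these shifts was not tested.

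Some small differences changed sign. For DNFB against BAC under quantile normalization, Col1a2 was -0.0462, Col3a1 -0.0101 and Col4a2 -0.0112. With median centring, Col12a1 was -0.0317 for BAC against vehicle, and Col14a1 0.0239 and Col17a1 0.0708 for DNFB against BAC. With probe sets averaged, Col1a2 was -0.0842 for DNFB and -0.0048 for BAC against vehicle and -0.0794 for DNFB against BAC, where Col12a1 was -0.20, Col3a1 -0.0655 and Col5a2 -0.0474. Leaving out 1 array gave, for DNFB against BAC, Col14a1 -0.13 to 0.0109, Col17a1 -0.0685 to 0.0707, Col4a2 -0.036 to 0.0916, Col12a1 -0.0687 to 0.22, Col1a1 -0.0415 to 0.32 and Col3a1 -0.0056 to 0.25. Against vehicle it gave -0.39 to 0.10 for Col2a1 and -0.0571 to 0.27 for Col14a1 after DNFB, and -0.0526 to 0.19 for Col12a1 and -0.0076 to 0.32 for Col14a1 after BAC.

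Median centring moved the median of all tested genes to -0.12 for BAC against vehicle and to 0.10 for DNFB against BAC, where the collagen medians were 0.11 and 0.02. Of all genes called for BAC against vehicle it left 34% higher, beside 46.3%. Same-numbered arrays correlated at -0.122 to 0.153 in their deviations, 1 of 9 pairs above 0.1, and the other pairs at -0.163 to 0.119. An array correlated best with its own number in 3 of 18 cases. These values showed no clear pairing by number. With 3 arrays per treatment they cannot exclude it, and the titles do not say whether the numbers pair the arrays. With the replicate number as a block, 6 collagens were called for DNFB, 5 for BAC and 0 for DNFB against BAC. The number of arrays, 3 per treatment, limits the precision, and 8 of the tested collagens passed the filter on 3 to 8 arrays alone. The exposure side, the unknown number of animals and the lack of doses limit all comparisons.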
